A study of Mus musculus with 18 samples.

Results

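The genes described here are Cd5, Cd6, Cd2, Cd28, Icos, Themis, Lck, Zap70 and Lat, a set of T cell costimulation and proximal receptor signalling genes. They were taken by symbol from a table of 21015 genes, of which they are 9, and all 9 passed the filter on low counts that left 16125 genes for testing. The RNA came from whole tumours of MC38-OVA, colon carcinoma cells of the mouse made to express ovalbumin, in hosts that lacked Adra2a (KO), the gene of the alpha2A adrenergic receptor, or in wild-type (WT) hosts. The hosts were 10 weeks old, were injected daily into the peritoneum with clonidine or guanabenz, both agonists of alpha2 adrenergic receptors, or with PBS, and gave their tumours 7 days after treatment. The tumour line and its antigen were common to all groups, the strain of the hosts and the doses were not stated, and the labels do not say whether Adra2a was missing from the whole animal.

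There were 18 libraries in 6 groups of 3. KO-Clonidine tumours came from Adra2a KO hosts given clonidine, and WT-Clonidine tumours from wild-type hosts given clonidine. KO-Guanabenz and WT-Guanabenz tumours came from KO and wild-type hosts given guanabenz, although for all 3 KO-Guanabenz libraries the title names guanabenz and the treatment entry reads untreated. KO-Control tumours came from KO hosts and WT-Control tumours from wild-type hosts given PBS. Nothing in the labels ties a library to a separate animal, so p-values measure only the spread between these libraries, which may in part be technical.

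A T cell is switched on when its receptor meets antigen and the kinase Lck phosphorylates the CD3 chains. The kinase ZAP-70 then docks on CD3 and phosphorylates LAT, a membrane scaffold on which further enzymes assemble, and THEMIS works beside them to set the strength of the signal. CD28 and ICOS add a second, costimulatory signal, CD2 binds its ligand on the partner cell, and CD5 and CD6, a pair of related scavenger receptor proteins, tune the signal up or down. In tumours these genes are read mostly as products of infiltrating T cells, but natural killer cells also make Cd2, Lck and Zap70, and mast cells and platelets also make Lat.

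Library totals ran between 54683838 and 491137160 estimated counts, with a median of 92401940, and no 2 libraries held identical values. Adra2a was at 0.0917 to 0.293 CPM, that is counts scaled to a common library size, in the 9 KO libraries and at 0.286 to 0.589 CPM in the 9 WT libraries, so the highest KO value passed the lowest WT value. The summed level of 5 macrophage markers was 1626 to 2149 CPM, and that of 4 epithelial markers chosen for a colon carcinoma line, Krt8, Krt18, Epcam and Cdh1, was only 3.68 to 12.7 CPM. The mean level of 3 Y-linked transcripts passed 1 CPM in 0 of 3 KO-Clonidine, 2 of 3 WT-Clonidine, 2 of 3 KO-Guanabenz, 2 of 3 WT-Guanabenz, 2 of 3 KO-Control and 3 of 3 WT-Control libraries.

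All 9 genes were detected in every library, with 25 to 2618 estimated counts each and levels of 0.345 to 8.67 CPM. On the scale of CPM per kilobase of transcript, which allows genes to be compared, Lck averaged 2.60 ± 0.61 and Cd2 2.32 ± 0.71 (SD over the 18 libraries, n = 18). All genes were measured in the same libraries, so these SDs do not tell whether 2 genes differ, and genes were not compared library by library. Zap70 followed at 1.75 ± 0.46 and Lat at 1.35 ± 0.33. Icos at 0.850 ± 0.329, Cd5 at 0.763 ± 0.302 and Cd6 at 0.724 ± 0.283 CPM per kilobase had means close together. Themis at 0.336 ± 0.130 and Cd28 at 0.303 ± 0.0936 CPM per kilobase were the lowest. Cd3e, a chain of the receptor complex itself, was at 2.61 ± 0.89 CPM per kilobase, close to Lck.

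Positions are given on GRCm38. Cd5 (chr19:10718107-10739026, minus strand) and Cd6 (chr19:10789339-10830062, minus strand) are neighbours 50313 bases apart with 1 annotated gene between them. Adra2a, the gene missing in KO hosts, is on the same chromosome, 43215197 bases from Cd6 with 857 genes between. Cd28 (chr1:60746388-60773359, plus strand) and Icos (chr1:60960773-61000322, plus strand) form a second, looser pair 187414 bases apart. Zap70 is at chr1:36761798-36782821 (plus strand), Cd2 at chr3:101275908-101287939 (minus strand) and Lck at chr4:129548344-129573641 (minus strand). Lat is at chr7:126363827-126369705 (minus strand) and Themis at chr10:28668360-28883820 (plus strand). Icos, Themis, Lck, Zap70 and Lat overlap other annotated genes, all of them predicted genes, pseudogenes or microRNA genes, and the strand setting of the counting was not given in the sources used here.

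Promoter sequence from RefSeq (GRCm38.p6) was at hand for 5 of the 9 genes, in 9 windows of 250 bases before a transcription start. Windows of 4 of these genes are shown because all 9 genes differed in the same direction between the genotypes under clonidine: Cd5, the gene with the smallest p in the comparison of genotypes, the kinase genes Lck and Zap70, and Themis, which holds neither marked motif. Capitals mark AGGAAG, the core bound by ETS factors, and TGTGGT, the core bound by RUNX factors, on either strand; each line reads 5′ to 3′ toward the gene on its own strand, and bases inside the gene were left out.
Cd5, chr19:10739027-10739224, minus strand: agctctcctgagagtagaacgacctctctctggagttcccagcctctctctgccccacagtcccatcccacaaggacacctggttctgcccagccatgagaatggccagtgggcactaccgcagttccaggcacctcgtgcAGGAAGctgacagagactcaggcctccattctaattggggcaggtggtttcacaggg
Lck, chr4:129573642-129573891, minus strand: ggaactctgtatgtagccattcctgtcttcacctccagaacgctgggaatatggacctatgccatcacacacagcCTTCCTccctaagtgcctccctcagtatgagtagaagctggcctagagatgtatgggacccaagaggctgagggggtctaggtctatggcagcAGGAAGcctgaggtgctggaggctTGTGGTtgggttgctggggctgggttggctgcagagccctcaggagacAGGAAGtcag
Zap70, chr1:36761548-36761797, plus strand: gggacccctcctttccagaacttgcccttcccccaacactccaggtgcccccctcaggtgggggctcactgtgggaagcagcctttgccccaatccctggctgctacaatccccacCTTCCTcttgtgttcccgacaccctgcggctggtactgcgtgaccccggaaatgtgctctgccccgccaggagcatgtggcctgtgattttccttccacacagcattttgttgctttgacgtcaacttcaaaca
Themis, chr10:28668110-28668359, plus strand: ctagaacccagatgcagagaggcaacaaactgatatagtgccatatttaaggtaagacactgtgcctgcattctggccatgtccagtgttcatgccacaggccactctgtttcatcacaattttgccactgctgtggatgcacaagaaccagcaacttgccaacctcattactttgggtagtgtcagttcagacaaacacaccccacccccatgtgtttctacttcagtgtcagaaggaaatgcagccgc
AGGAAG or its reverse complement was in 6 of the 9 windows and TGTGGT in 2 of 9, against 29.5% and 14.0% of all 32851 promoter windows. The 9 windows are not independent, since some belong to the same gene and those of Themis share bases. By gene, AGGAAG was in 4 of 5 and TGTGGT in 2 of 5, and no share by gene was computed for all promoters. AGATAA, the core bound by GATA factors, was in 0 of 9 and in 10.0% of all windows, and CTTTGA, the core bound by TCF and LEF factors, was in 1 of 9 and in 13.8%. These 4 motifs do not overlap one another in the lines shown, and a match of letters is not evidence of binding.

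Under clonidine all 9 genes had lower mean levels in KO than in WT tumours. Cd5, Icos and Cd6 fell past the threshold, to 0.389, 0.382 and 0.426 of their WT-Clonidine level. In all, 3 of 9 genes were called lower and 0 higher, where a call is an adjusted p under 0.05 by edgeR's quasi-likelihood test over all 16125 genes, against 403 called genes or 2.5% of all those tested, 293 of them higher and 110 lower. All 9 log2 fold changes were negative, with a median of -1.0 against -0.01 over all genes, and the KO-Clonidine and WT-Clonidine libraries did not overlap for 8 of 9, against 12.8% of all genes lower without overlap. In bulk tumours fewer T cells and less RNA per T cell cannot be told apart.

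**Figure D1:**
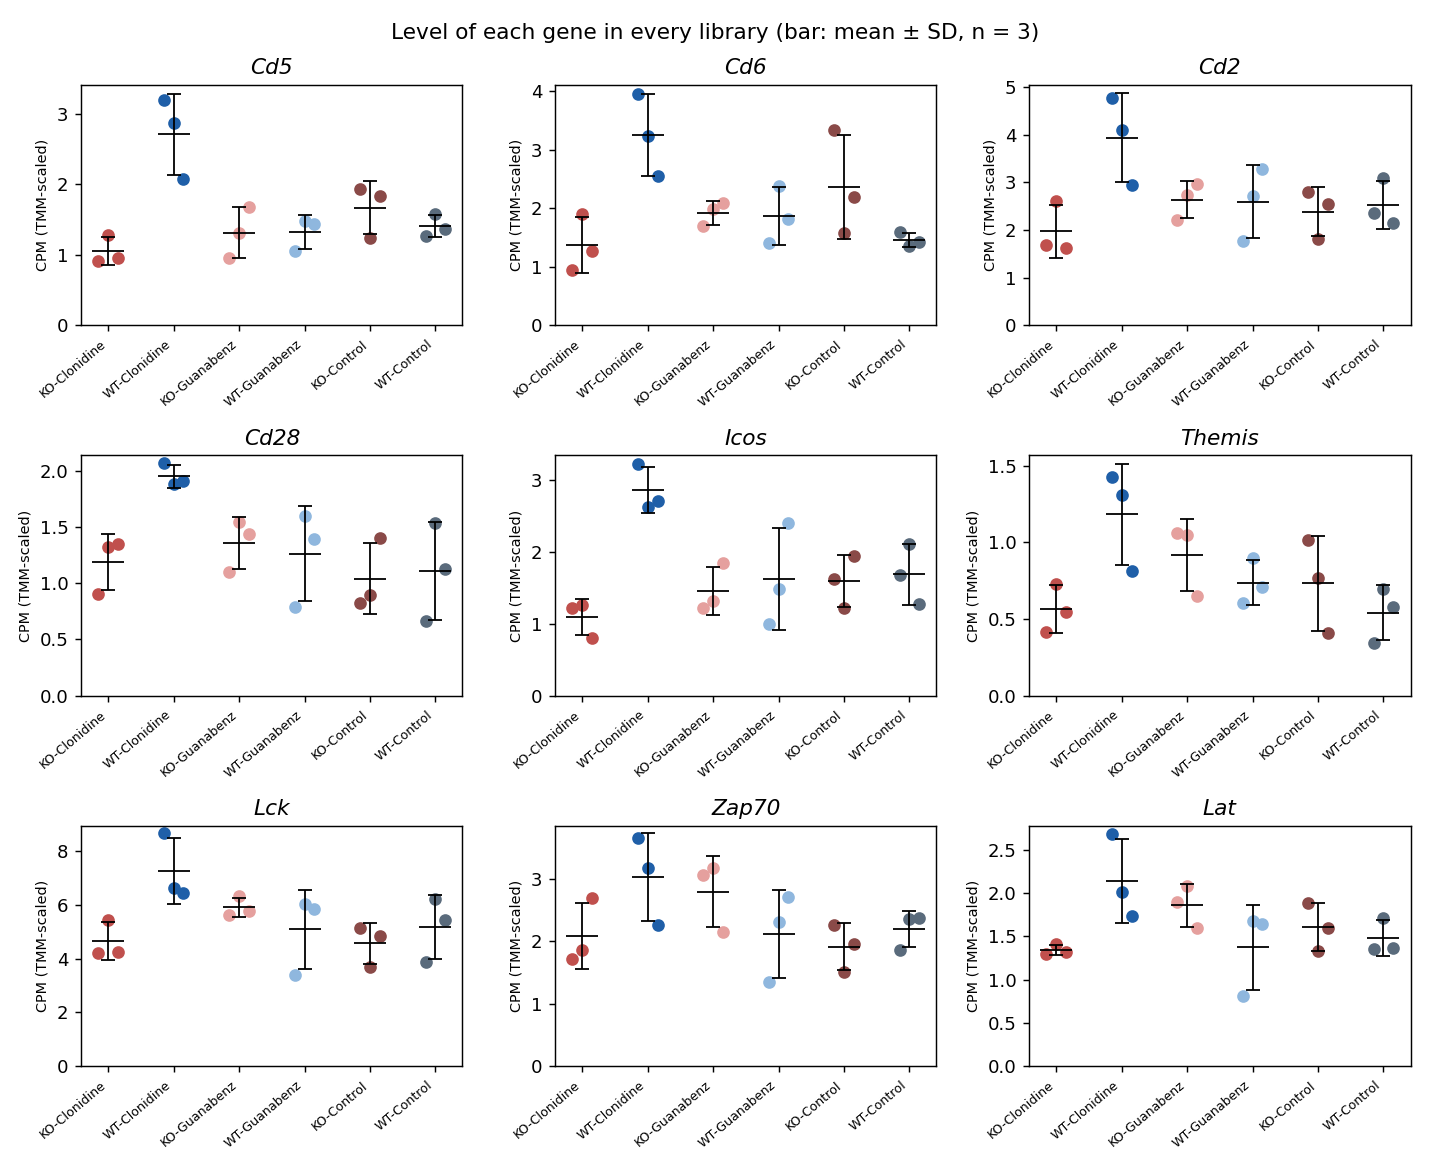
Level of each of the 9 genes in TMM-scaled CPM (each vertical axis starts at 0) in the 18 libraries, by group; points are libraries, the wide bar is the group mean and the whiskers are 1 SD (n = 3). The WT-Clonidine group has the highest mean for 9 of 9 genes, and the KO-Clonidine group has the lowest for 5 of 9.

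Cd5 was at 0.917, 1.28 and 0.955 CPM in KO-Clonidine tumours, against 3.19, 2.86 and 2.07 CPM in WT-Clonidine tumours. Each KO-Clonidine library lay below each WT-Clonidine library, and its log2 fold change was -1.36 (SE 0.24, adjusted p = 0.0197 by edgeR). The means of the other groups lay between, with 0.956, 1.31 and 1.67 CPM in KO-Guanabenz, 1.05, 1.48 and 1.43 CPM in WT-Guanabenz, 1.93, 1.23 and 1.84 CPM in KO-Control and 1.27, 1.57 and 1.37 CPM in WT-Control tumours. Thus the 3 WT-Clonidine libraries were the 3 highest of the 18, while KO-Clonidine values overlapped those of KO-Guanabenz, WT-Guanabenz, KO-Control and WT-Control.

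Cd6, whose protein shares its architecture with CD5, was at 0.950, 1.90 and 1.27 CPM in KO-Clonidine tumours, against 3.95, 3.23 and 2.55 CPM in WT-Clonidine tumours. The groups did not overlap, and the log2 fold change was -1.23 (SE 0.28, adjusted p = 0.0335 by edgeR). Cd6 was at 1.69, 1.98 and 2.08 CPM in KO-Guanabenz, 1.40, 2.38 and 1.81 CPM in WT-Guanabenz, 3.33, 1.58 and 2.19 CPM in KO-Control and 1.58, 1.35 and 1.42 CPM in WT-Control tumours. One KO-Control library, at 3.33 CPM, reached into the WT-Clonidine range, which no Cd5 library did.

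Icos, the inducible costimulator of activated T cells, was at 1.22, 1.27 and 0.807 CPM in KO-Clonidine tumours, against 3.22, 2.63 and 2.72 CPM in WT-Clonidine tumours. No values overlapped, and the log2 fold change was -1.39 (SE 0.30, adjusted p = 0.0263 by edgeR). Its other values were 1.22, 1.31 and 1.84 CPM in KO-Guanabenz, 0.993, 1.48 and 2.40 CPM in WT-Guanabenz, 1.63, 1.22 and 1.95 CPM in KO-Control and 1.67, 2.12 and 1.27 CPM in WT-Control tumours. The WT-Clonidine libraries were again the 3 highest of all 18.

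The other 6 genes had negative differences that did not pass the threshold. Cd2, an adhesion and costimulatory receptor, was at 1.68, 2.61 and 1.61 CPM in KO-Clonidine tumours, against 4.77, 4.10 and 2.93 CPM in WT-Clonidine tumours. Its log2 fold change was -1.0 (SE 0.26, adjusted p = 0.0542 by edgeR), just outside the threshold, with no overlap. Cd28, the receptor of the main second signal, was at 0.900, 1.32 and 1.34 CPM in KO-Clonidine and at 2.06, 1.88 and 1.91 CPM in WT-Clonidine tumours. These did not overlap either, with a log2 fold change of -0.70 (SE 0.30, adjusted p = 0.208 by edgeR).

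Inside the cell, Themis was at 0.417, 0.728 and 0.545 CPM in KO-Clonidine tumours, against 1.42, 1.31 and 0.811 CPM in WT-Clonidine tumours. Its log2 fold change of -1.06 (SE 0.35, adjusted p = 0.104 by edgeR) was the largest among the signalling proteins, with separate but wide groups. Lck was at 4.22, 5.45 and 4.25 CPM in KO-Clonidine and at 8.67, 6.64 and 6.44 CPM in WT-Clonidine tumours, a log2 fold change of -0.64 (SE 0.21, adjusted p = 0.110 by edgeR). The Lck groups did not overlap, though they lay closer together than those of Cd5.

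Lat was at 1.30, 1.41 and 1.32 CPM in KO-Clonidine tumours, a tight group, against 2.68, 2.01 and 1.74 CPM in WT-Clonidine tumours. Its log2 fold change was -0.67 (SE 0.24, adjusted p = 0.132 by edgeR). Zap70 was the exception in overlap: its KO-Clonidine values of 1.72, 1.86 and 2.69 CPM reached into the WT-Clonidine values of 3.65, 3.17 and 2.27 CPM, with a log2 fold change of -0.53 (SE 0.26, adjusted p = 0.270 by edgeR).

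These 3 calls rest on few libraries. Without any 1 of WT-Clonidine 1, 2 or 3 or KO-Clonidine 1 or 3, 0 of 9 genes were called, while 4 were called without KO-Clonidine 2; across these 6 fits Cd5 kept a log2 fold change of -1.53 to -1.23, Icos of -1.52 to -1.20 and Cd6 of -1.54 to -1.03. A fit to only the KO-Clonidine and WT-Clonidine libraries called 4 genes in the whole table and 0 of the 9, with adjusted p = 0.065 for Cd5 and Icos and 0.0832 for Cd6 by edgeR. With the presence of Y-linked transcripts, found in 0 of 3 KO-Clonidine and 2 of 3 WT-Clonidine libraries, as a covariate, edgeR's adjusted p was 0.0369 for Cd5, 0.0246 for Icos and 0.0828 for Cd6.

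**Figure D2:**
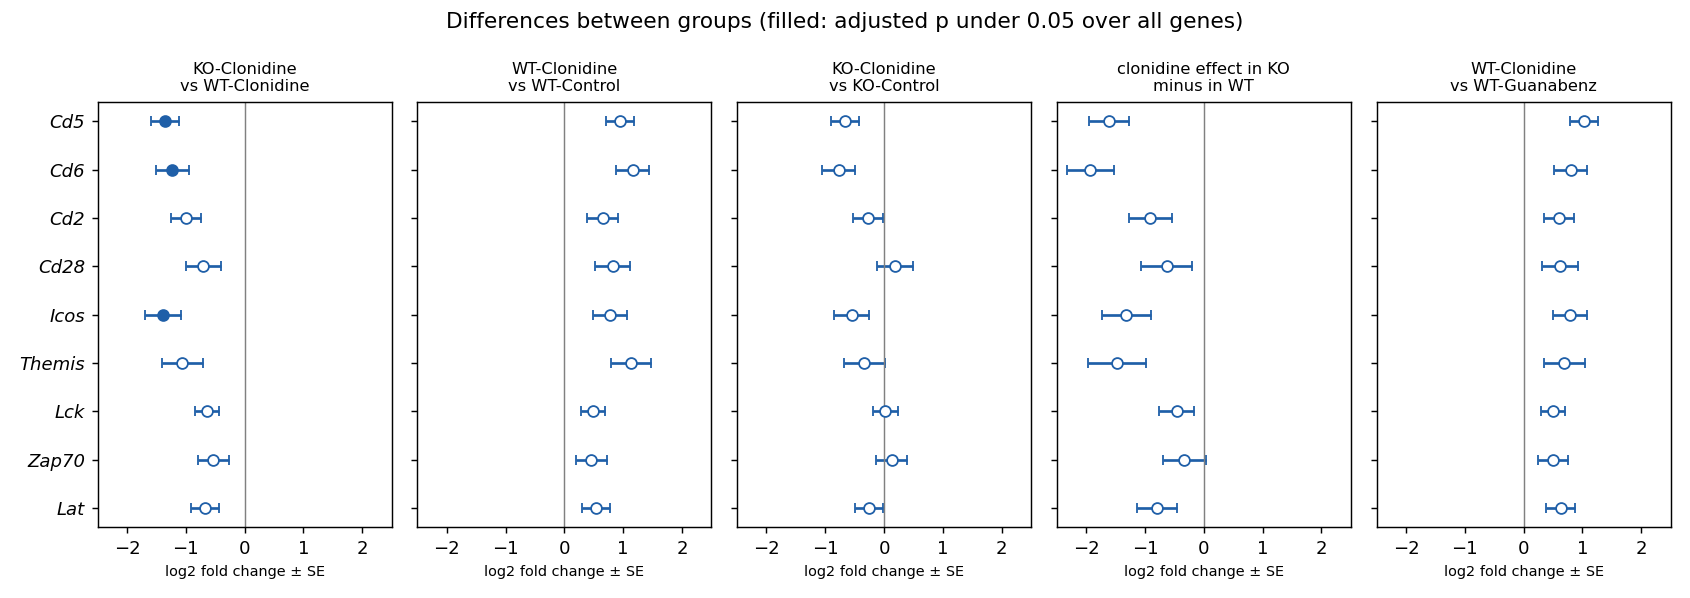
Log2 fold change of each gene with its standard error (bars) in 5 comparisons that share libraries; filled points have an adjusted p under 0.05 by edgeR over all 16125 genes, and the fourth panel is a difference of 2 fold changes. All 9 genes lie below 0 in KO-Clonidine against WT-Clonidine, with Cd5, Cd6 and Icos filled, and all 9 lie above 0 in WT-Clonidine against WT-Control with none filled.

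In wild-type hosts the 9 genes had higher levels with clonidine than with PBS, but no gene in the table passed the test. edgeR called 0 of 16125 genes, or 0%, and thus 0 of the 9, with adjusted p-values of 0.127 to 0.470 for the 9. At an unadjusted p under 0.05, edgeR placed 8 of 9 higher, against 5.98% of all genes, and DESeq2 called 2 of the 9 and 355 genes in all. All 9 log2 fold changes were positive, with a median of 0.77 against 0 over all genes, and 7 of 9 did not overlap, against 11.1% of all genes higher without overlap. WT-Clonidine tumours entered both this comparison and the one by genotype, so the pair are not independent.

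Cd6 was at 3.95, 3.23 and 2.55 CPM in WT-Clonidine tumours, against 1.58, 1.35 and 1.42 CPM in WT-Control tumours, a log2 fold change of 1.16 (SE 0.28, adjusted p = 0.127 by edgeR and 0.00605 by DESeq2). The WT-Control libraries had the smallest SD of Cd6 among the 6 groups, 0.121 CPM. Cd5, at the same levels as given above, had a log2 fold change of 0.95 (SE 0.24, adjusted p = 0.131 by edgeR and 0.0111 by DESeq2), and its lowest WT-Clonidine library, at 2.07 CPM, stood above its highest WT-Control library, at 1.57 CPM. Themis was at 1.42, 1.31 and 0.811 CPM in WT-Clonidine tumours, against 0.345, 0.699 and 0.575 CPM in WT-Control tumours. Its log2 fold change was 1.13 (SE 0.34, adjusted p = 0.190 by edgeR), without overlap.

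The costimulatory receptors had smaller differences. Cd28 was at 2.06, 1.88 and 1.91 CPM in WT-Clonidine tumours, against 0.660, 1.53 and 1.12 CPM in WT-Control tumours (log2 fold change 0.82, SE 0.30). Icos had a log2 fold change of 0.77 (SE 0.29) and Cd2 one of 0.65 (SE 0.26), and only Cd2 of these receptors overlapped, its lowest WT-Clonidine library at 2.93 CPM lying under its highest WT-Control library at 3.09 CPM. The 2 kinases and the scaffold differed least: Lat by 0.54 (SE 0.24), Lck by 0.49 (SE 0.21) and Zap70 by 0.46 (SE 0.26) on the log2 scale. Lck was at 8.67, 6.64 and 6.44 CPM in WT-Clonidine tumours, against 3.89, 6.21 and 5.42 CPM in WT-Control tumours, which nearly touched.

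Summed levels of markers of other cells were read in the same groups. For mast, natural killer and B cells they did not overlap between WT-Clonidine and WT-Control tumours. Between KO-Clonidine and WT-Clonidine tumours they overlapped. The summed level of 6 mast cell markers was 17.5 to 31.2 CPM in WT-Clonidine, against 9.11 to 13.6 CPM in WT-Control tumours, with 0 of 6 at 0 in any library. It was 11.9 to 22.8 CPM in KO-Clonidine tumours. The 5 natural killer cell markers summed to 5.85 to 8.91 CPM in KO-Clonidine, 8.81 to 10.4 CPM in WT-Clonidine and 7.18 to 8.37 CPM in WT-Control tumours, and the 5 B cell markers to 5.07 to 6.4 CPM in KO-Clonidine, 6.14 to 7.85 CPM in WT-Clonidine and 4.59 to 6.01 CPM in WT-Control tumours. The 5 lymph node markers were near 0 throughout, at 1.13 to 1.97 CPM with up to 3 of 5 at 0 in a library. Macrophage markers summed to 1803 to 1963 CPM in KO-Clonidine, 1769 to 2149 CPM in WT-Clonidine and 1775 to 2020 CPM in WT-Control tumours. Platelet and megakaryocyte markers summed to 39.1 to 51.8, 37.4 to 43.1 and 34.2 to 41.6 CPM in the same order. Both lists overlapped in both comparisons. The part of these other cells in the results was not tested.

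In KO hosts none of the 9 genes separated the clonidine from the PBS tumours. By edgeR 0 of 9 genes were called, against 3 of 16125 or 0.0186%, and by DESeq2 also 0 of 9; the groups overlapped for all 9 genes, while 4.4% of all genes were higher and 4.43% lower without overlap. The median log2 fold change was -0.27, with 6 of 9 negative. Cd6 and Cd5 were the 2 of 9 with an unadjusted p under 0.05, against 2.78% of all genes lower, with differences of -0.77 (SE 0.28, unadjusted p = 0.0147, adjusted p = 0.865 by edgeR) and -0.66 (SE 0.24, unadjusted p = 0.0157, adjusted p = 0.865 by edgeR). Icos was at -0.55 (SE 0.30), Themis at -0.34 (SE 0.35), Cd2 at -0.27 (SE 0.26) and Lat at -0.25 (SE 0.24) on the log2 scale. Lck, Zap70 and Cd28 were at 0.02, 0.13 and 0.19. The sign of these 9 differences is the opposite of that in wild-type hosts for Cd5, Cd6, Icos, Themis, Cd2 and Lat.

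The difference between the 2 clonidine effects, KO minus WT, was then tested directly. edgeR called 0 of 16125 genes, or 0%, and DESeq2 37 genes, 2 of them Cd6 and Cd5. The difference was -1.93 for Cd6 (SE 0.40, unadjusted p = 0.000159, adjusted p = 0.303 by edgeR, 0.00241 by DESeq2) and -1.61 for Cd5 (SE 0.34, unadjusted p = 0.000217, adjusted p = 0.303 by edgeR, 0.0076 by DESeq2). All 9 were negative, with a median of -0.91 against 0 over all genes, and 6 of 9 had an unadjusted p under 0.05, against 4.07% of all genes lower. Themis was at -1.48 (SE 0.49), Icos at -1.32 (SE 0.42), Cd2 at -0.91 (SE 0.37) and Lat at -0.80 (SE 0.34). Cd28 at -0.63 (SE 0.43), Lck at -0.46 (SE 0.30) and Zap70 at -0.33 (SE 0.37) had the smallest differences.

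Guanabenz gave no such pattern. In wild-type hosts it was followed by log2 fold changes between -0.09 for Lat and 0.44 for Themis, with a median of -0.02; edgeR and DESeq2 called 0 of 9, and 0 of 9 had an unadjusted p under 0.05, against 5.18% of all genes higher and 6.26% lower. edgeR called 0% of all genes. Cd5, for instance, differed by -0.08 (SE 0.24) and Icos by -0.03 (SE 0.29). In the KO-Guanabenz tumours, whose labels conflict on the treatment, the median against KO-Control was 0.21, with 0 of 9 called by edgeR or DESeq2 and 0.0124% of all genes called. At an unadjusted p under 0.05 there were 0 of 9, against 6.74% of all genes higher and 8.37% lower. Lck was the one gene of the 9 whose groups were apart, at 5.63, 6.32 and 5.78 CPM in KO-Guanabenz and at 5.15, 3.71 and 4.85 CPM in KO-Control tumours, against 9.09% of all genes higher without overlap. The guanabenz effect in KO minus that in WT had a median of 0.10, again with 0 of 9 called by either tool and 0.0062% of all genes called. An unadjusted p under 0.05 was found for 0 of 9, against 2.58% higher and 3.13% lower among all genes.

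The drugs were set side by side in wild-type hosts, with doses not stated. All 9 genes were higher in WT-Clonidine than in WT-Guanabenz tumours, with a median log2 fold change of 0.63 against -0.01 over all genes. The median of the 9 genes was 0.39 without WT-Guanabenz 1. edgeR and DESeq2 called 0 of 9, and edgeR 0% of all genes; 6 of 9 had an unadjusted p under 0.05, against 2.57% higher among all genes, and 6 of 9 did not overlap, against 5.33%. Cd5, at 3.19, 2.86 and 2.07 CPM in WT-Clonidine and at 1.05, 1.48 and 1.43 CPM in WT-Guanabenz tumours, differed by 1.03 (SE 0.24, unadjusted p = 0.000557, adjusted p = 0.957 by edgeR). Cd6 and Icos differed by 0.80 (SE 0.28) and 0.79 (SE 0.29). Zap70 and Lck had the smallest differences, both at 0.50.

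Without clonidine the genotypes did not separate the 9 genes. KO-Control against WT-Control gave a median of -0.07, with 0 of 9 called by edgeR or DESeq2 and 0.0062% of all genes called. Cd6 alone, 1 of 9, had an unadjusted p under 0.05, against 2.25% of all genes higher, at a log2 fold change of 0.70 (SE 0.28, unadjusted p = 0.023, adjusted p = 1.00 by edgeR), with values of 3.33, 1.58 and 2.19 CPM in KO-Control and 1.58, 1.35 and 1.42 CPM in WT-Control tumours that overlapped. KO-Guanabenz against WT-Guanabenz, with the same conflict in the labels, gave a median of 0.10, 0 of 9 called by edgeR or DESeq2, 0 of 9 at an unadjusted p under 0.05, against 3.63% of all genes higher and 4.53% lower, and 0.0186% of all genes called.

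To set the 9 genes against T cell RNA as a whole, each was expressed as its log2 level minus the mean log2 level of Cd3d, Cd3e and Cd3g, the chains of the CD3 complex. On this scale the mean of the 9 genes differed little between the groups compared, by -0.11 in KO-Clonidine against WT-Clonidine tumours. It differed by -0.01 in WT-Clonidine against WT-Control and by -0.10 in KO-Clonidine against KO-Control tumours. For guanabenz it differed by -0.05 in WT-Guanabenz against WT-Control tumours. In KO-Guanabenz tumours, with their conflict in the labels, it differed by -0.15 from KO-Control tumours. SDs within a group were 0.10 to 0.31. The CD3 chains themselves were at log2 fold changes of -0.96 for Cd3e, -0.89 for Cd3g and -0.57 for Cd3d in KO-Clonidine against WT-Clonidine tumours. In WT-Clonidine against WT-Control tumours they were at 0.86, 0.87 and 0.53, and no CD3 chain passed edgeR's test in either comparison.

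A few genes did not overlap between groups on the CD3 scale, and the share of all genes without overlap on it was not computed. Cd5 was at -1.33, -1.60 and -1.95 in KO-Clonidine tumours, against -1.03, -1.02 and -1.32 in WT-Clonidine tumours, a difference of -0.50, and Cd6 at -1.28, -1.03 and -1.55, against -0.73, -0.84 and -1.02, a difference of -0.42. Neither gene overlapped, and each gave p = 0.1 by a two-sided exact permutation test, the smallest p that 3 against 3 allows, so the design cannot reach 0.05. Cd6 was also lower by this measure in KO-Clonidine than in KO-Control tumours, with a difference of -0.60 and exact permutation p = 0.1. Icos, which had the largest fold change between genotypes, overlapped on the CD3 scale, at -0.93, -1.61 and -2.19 in KO-Clonidine, against -1.02, -1.14 and -0.92 in WT-Clonidine tumours (difference -0.55, exact permutation p = 0.3).

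The kinases were apart in another comparison, that of WT-Clonidine with WT-Control tumours. There Cd5 and Cd6 overlapped, at differences of 0.14 and 0.35 (exact permutation p = 0.4 for each). In KO-Clonidine against WT-Clonidine tumours Lck and Zap70 overlapped, at differences of 0.2 and 0.31 (exact permutation p = 0.5 and 0.3). Lck was at 0.41, 0.19 and 0.32 in WT-Clonidine tumours, against 0.60, 0.59 and 0.56 in WT-Control tumours, a difference of -0.28 without overlap (exact permutation p = 0.1). Zap70 was likewise lower, at -0.84, -0.87 and -1.18 in WT-Clonidine, against -0.45, -0.80 and -0.63 in WT-Control tumours, a difference of -0.34 (exact permutation p = 0.1). Before this scaling the log2 fold changes between these groups were 0.49 for Lck and 0.46 for Zap70. Those of the reference were 0.53 for Cd3d, 0.86 for Cd3e and 0.87 for Cd3g, so the size of the differences depends on the chains used. Lat was lower per CD3 in WT-Guanabenz than in WT-Control tumours, with a difference of -0.28 (exact permutation p = 0.1). These tests covered 9 genes in each of 5 comparisons, and none could pass a correction for that number.

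**Figure D3:**
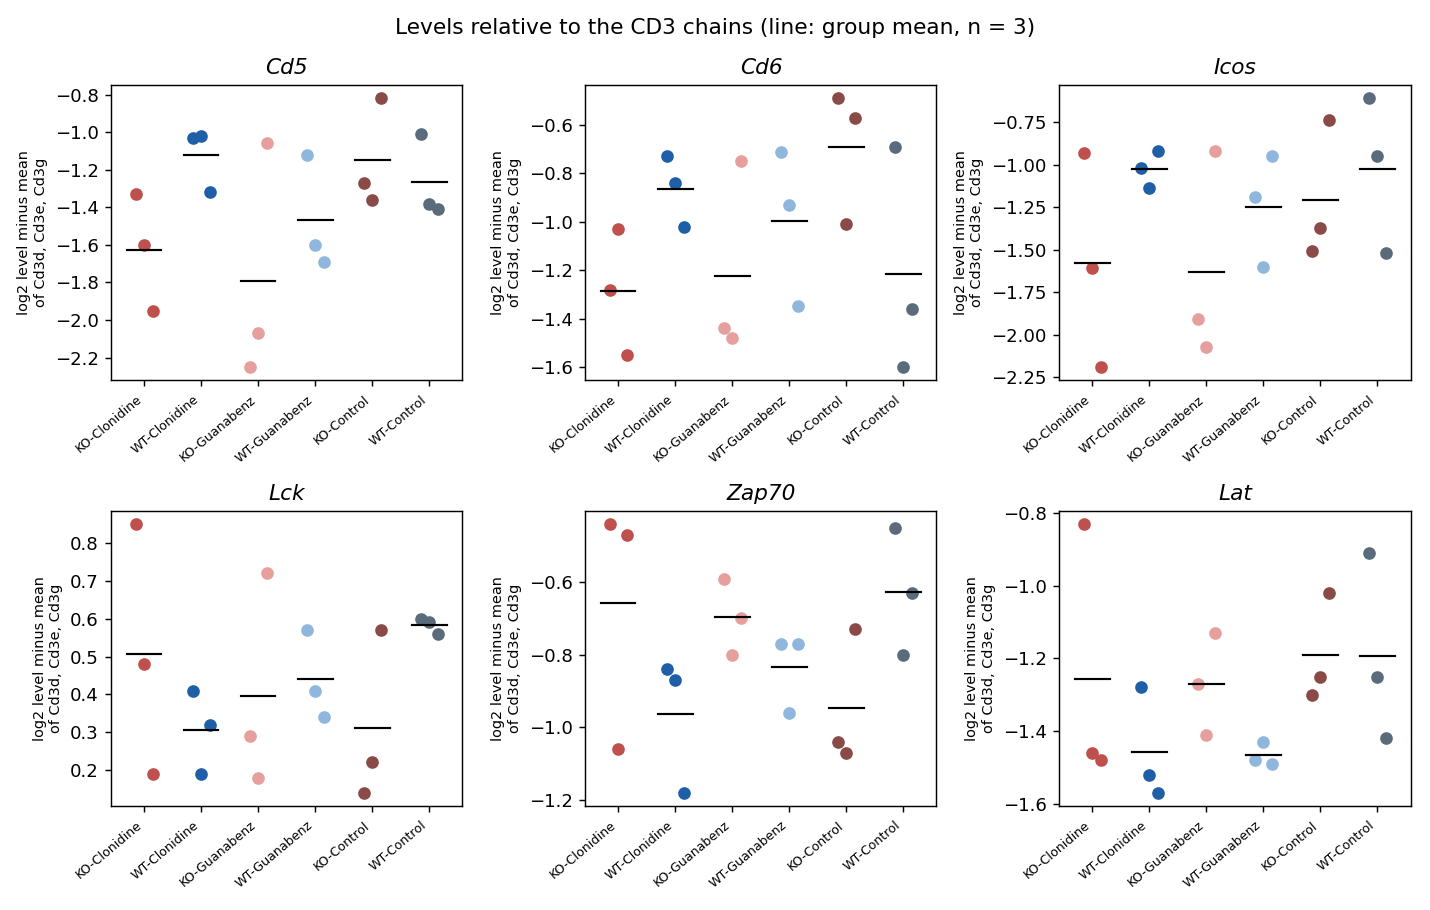
Log2 level of 6 of the genes minus the mean log2 level of Cd3d, Cd3e and Cd3g in each of the 18 libraries, by group (points: libraries; line: group mean, n = 3; vertical axes differ and do not start at 0). Cd5 and Cd6 are lower in all 3 KO-Clonidine than in all 3 WT-Clonidine libraries, and Lck and Zap70 are lower in all 3 WT-Clonidine than in all 3 WT-Control libraries.

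Other genes of the pathway were read from lists of 96 genes. The receptor complex and coreceptors, 7 of 7 tested, all had lower levels in KO-Clonidine than in WT-Clonidine tumours (median log2 fold change -0.74), and 0 of 7 were called by edgeR, with 4 of 7 lower at an unadjusted p under 0.05, against 8.48% of all genes lower. Cd247, the zeta chain of the complex, was at -0.87 (SE 0.27, adjusted p = 0.0854 by edgeR). The list of other costimulatory receptors also held inhibitory ones, among them Ctla4, Pdcd1 and Btla. Of its 11 genes tested, 10 were lower, with a median of -0.72 and 0 called. At an unadjusted p under 0.05, 8 of 11 were lower, against the same 8.48%. Ctla4, the inhibitory counterpart of Cd28, was at -1.32 (SE 0.34, adjusted p = 0.0543 by edgeR) and Pdcd1, the receptor PD-1, at -0.78 (SE 0.21, adjusted p = 0.0557 by edgeR). Tnfrsf18 and Tnfrsf4, the receptors GITR and OX40, were at -0.70 (SE 0.19) and -0.72 (SE 0.21).

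Ligands and downstream genes had smaller medians, in lists that differ in size and in level from the 9 genes. Over the 18 libraries the 9 genes summed to 12.2 to 33.6 CPM and the ligands to 204 to 287 CPM. Other proximal signalling and adaptor genes summed to 773 to 886 CPM and the inhibitors to 746 to 846 CPM. Targets and lineage transcription factors summed to 212 to 291 and 272 to 303 CPM. Which cells made the RNA of these lists was not tested. The single calls given here and in the next paragraph stand beside 2.5% of all genes tested called in this comparison. The 13 ligands tested had a median of -0.13 and 1 was called, Pdcd1lg2, the ligand PD-L2, at 0.300, 0.538 and 0.262 CPM in KO-Clonidine tumours, against 1.00, 0.742 and 1.16 CPM in WT-Clonidine tumours (log2 fold change -1.38, adjusted p = 0.0496 by edgeR). Of 22 other proximal signalling and adaptor genes, 1 was called, Lcp2, the adaptor SLP-76 that binds LAT complexes, which fell to 50.1, 51.2 and 43.9 CPM in KO-Clonidine, against 71.0, 64.5 and 58.7 CPM in WT-Clonidine tumours (log2 fold change -0.42, adjusted p = 0.0461 by edgeR). Lcp2 is also made by myeloid cells. Rasgrp1, a Ras activator, was at -0.82 (SE 0.23, adjusted p = 0.0625 by edgeR). Of 17 inhibitors of proximal signalling, 1 was called, Ptpn22, a phosphatase that acts on Lck and ZAP-70, at 5.64, 7.11 and 5.56 CPM in KO-Clonidine, against 11.0, 9.84 and 8.38 CPM in WT-Clonidine tumours (log2 fold change -0.67, adjusted p = 0.0376 by edgeR). Of these 17, 11 had negative and 6 positive differences, with a median of -0.24. Ubash3b, Dok1 and Ptpn2 were higher, at 0.25, 0.38 and 0.18 (adjusted p = 0.0586, 0.0817 and 0.135 by edgeR).

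Targets of receptor signalling went both ways, 6 of 14 with positive and 8 with negative differences, and a median of -0.12. Egr1, an immediate early transcription factor made by many cell types, was the only one called and was higher, at 65.2, 43.8 and 57.1 CPM in KO-Clonidine, against 33.1, 35.6 and 41.7 CPM in WT-Clonidine tumours (log2 fold change 0.59, adjusted p = 0.0335 by edgeR). Il2ra, the high-affinity chain of the interleukin-2 receptor, was at -0.68 (SE 0.21, adjusted p = 0.0913 by edgeR). The 9 lineage transcription factors had a median of -0.33 and 0 called, with Ikzf3 at -1.01 (SE 0.29) and Lef1 at 0.34 (SE 0.11). None of these 4 calls held in a fit to only the KO-Clonidine and WT-Clonidine libraries, where edgeR's adjusted p was 0.0785 for Ptpn22, 0.0965 for Pdcd1lg2, 0.0778 for Lcp2 and 0.0956 for Egr1.

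**Figure D4:**
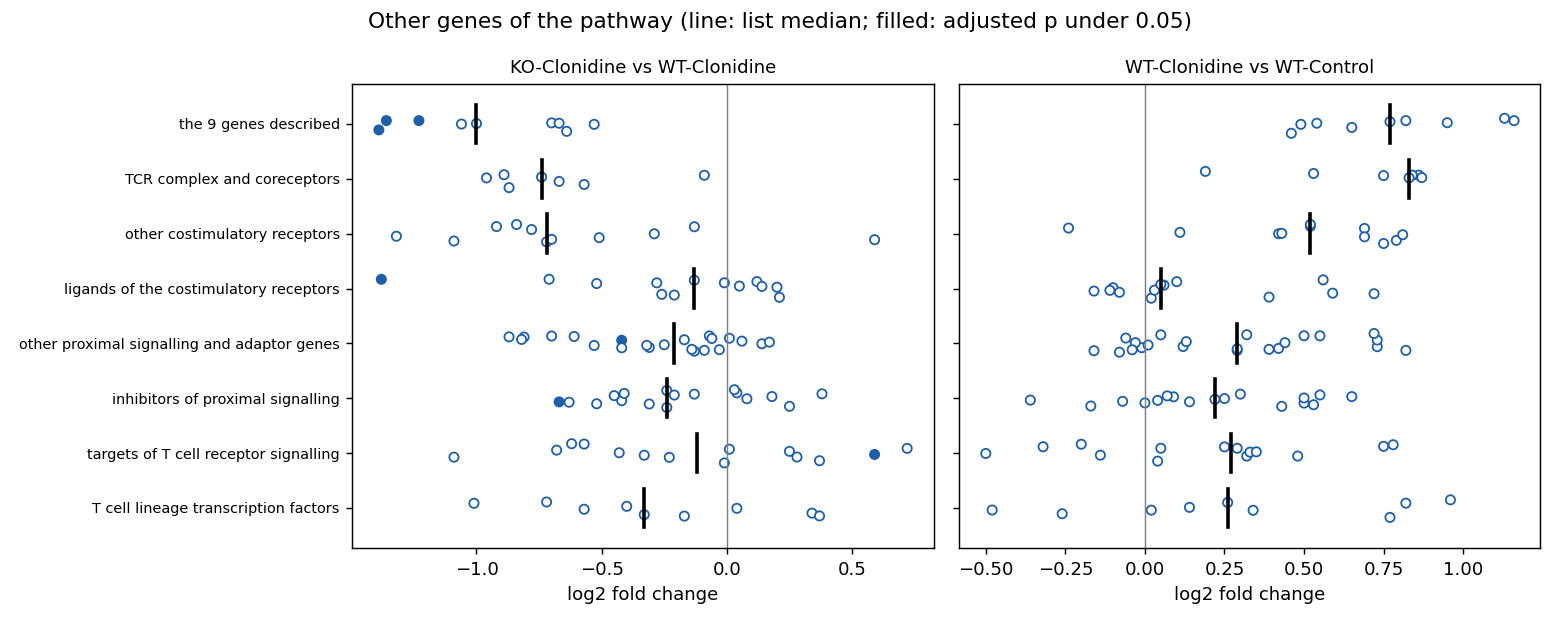
Log2 fold change of each tested gene of the 9 and of 7 lists of related genes in KO-Clonidine against WT-Clonidine (left) and in WT-Clonidine against WT-Control tumours (right); each point is a gene, filled where edgeR's adjusted p is under 0.05, and black lines are list medians (horizontal axes differ; vertical jitter carries no value). The medians on the left are -1.0 for the 9 genes, -0.74 for the receptor complex and -0.13 for the ligands.

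In WT-Clonidine against WT-Control tumours the same lists had 0 genes called by edgeR. The receptor complex had a median of 0.83 with 7 of 7 positive, and the ligands 0.05 with 9 of 13 positive. The list of other costimulatory receptors, inhibitory ones included, had a median of 0.52 with 10 of 11 positive. Pdcd1 was at 0.69 (SE 0.21, adjusted p = 0.184 by edgeR and 0.0434 by DESeq2) and Cd27 at 0.79 (SE 0.30, adjusted p = 0.277 by edgeR). Ikzf3 was at 0.96 (SE 0.28, adjusted p = 0.182 by edgeR and 0.0377 by DESeq2) and Nfatc1, a transcription factor of receptor signalling, at 0.35 (SE 0.07, adjusted p = 0.103 by edgeR and 0.0058 by DESeq2). Irf4, another target of receptor signalling, was at 0.78 (SE 0.26, adjusted p = 0.210 by edgeR and 0.0767 by DESeq2). In the other direction, Egr1 was at -0.50 (SE 0.13, adjusted p = 0.160 by edgeR and 0.0233 by DESeq2) and Lef1 at -0.48 (SE 0.11, adjusted p = 0.105 by edgeR and 0.00477 by DESeq2).

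Over the 18 libraries the levels of the 9 genes correlated positively in all 36 pairs. Pairs of other genes were not correlated for comparison. The 36 pairs of genes had Pearson correlations of 0.37 to 0.893 on the log2 scale with a median of 0.679, and of -0.096 to 0.897 with a median of 0.556 after the group means were taken out; each pair shares its libraries and their depth. Outside the 9 genes, the 5 whose profile was most like their mean among 12682 candidates were Gimap4 (r = 0.947, Spearman's rho = 0.936), Cd247 (r = 0.946, rho = 0.874), Ptprcap (r = 0.924, rho = 0.895), Ltb (r = 0.921, rho = 0.913) and Gimap3 (r = 0.907, rho = 0.926), over 18 libraries each. Gimap4 and Gimap3 encode small GTPase-like proteins of lymphocytes, Ptprcap a protein associated with CD45, and Ltb lymphotoxin beta.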

How the data were processed

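The deposited table held 1 column of estimated counts per library for 21015 genes by Entrez ID; per the submitters' processing notes, reads were trimmed with Trim Galore 0.6.5 and quantified with kallisto 0.46.0 on GRCm38. The estimated counts came whole in the authors' table and were used as deposited, with no step recorded between kallisto and the gene table. Symbols were matched for 20994 of 21015 IDs, and the remaining 21 held at most 0.0216% of a library and stayed in.

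Levels are CPM after TMM scaling. edgeR 4.0.16 in R 4.3.3 kept 16125 genes by filterByExpr and fitted 6 group means to all 18 libraries with the quasi-likelihood test (limma 3.58.1 beneath it), residual df 12, Benjamini-Hochberg over all genes. Fold changes are tested over control, or KO over WT. CPM per kilobase used the median length of a gene's coding transcripts in GENCODE. DESeq2 1.42.0 and other settings were alternatives, given in the closing section. The steps were tested on simulated data. The 9 genes, the lists, their tests and the alternatives were chosen with earlier results of these data known. Named from each list were at most the 4 genes of smallest p in a comparison; likeness took the 5 highest Pearson correlations with the mean of the standardised log2 CPM of the 9 among genes with a mean log2 CPM of at least 0. For CD3 ratios, log2 CPM used a prior count of 2.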

Additional observations from a re-analysis of the deposited data

Results flagged for a closer look

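On the scale relative to CD3, 3 genes had drug effects of opposite sign in KO and WT hosts in every drug-treated library, measured from the mean of the PBS libraries of the same genotype. For Cd6 the mean clonidine effect was -0.60 in KO hosts and 0.35 in WT hosts, and for Themis it was -0.14 in KO hosts and 0.35 in WT hosts. For Cd6 in WT hosts the groups overlapped, 1 WT-Control library at -0.69 lying above all 3 WT-Clonidine libraries (two-sided exact permutation p = 0.4), and in KO hosts they did not (exact permutation p = 0.1, the smallest possible). For Themis the groups overlapped in KO hosts (exact permutation p = 0.6), and the WT difference had an exact permutation p of 0.3. For Zap70 the mean guanabenz effect was 0.25 in KO hosts, where the labels conflict on the treatment, and -0.21 in WT hosts (exact permutation p = 0.2 in KO hosts and 0.3 in WT hosts). These differences between genotypes were not tested on this scale.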

How the results depend on the processing

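The numbers of called genes depended on the tool and on single libraries. In what follows the comparisons are KO-Clonidine vs WT-Clonidine (403 called), WT-Clonidine vs WT-Control (0), KO-Clonidine vs KO-Control (3), the clonidine effect in KO minus in WT (0), WT-Guanabenz vs WT-Control (0), KO-Guanabenz vs KO-Control (2), the guanabenz effect in KO minus in WT (1), KO-Control vs WT-Control (1), KO-Guanabenz vs WT-Guanabenz (3) and WT-Clonidine vs WT-Guanabenz (0). DESeq2 called 1148, 355, 29, 37, 171, 457, 13, 17, 24 and 4 genes in this order of comparisons, and 6, 2 and 2 of the 9 genes in the first, the second and the clonidine difference. Total-count scaling called 249 in the first, 1 in WT-Guanabenz vs WT-Control, 15 in KO-Guanabenz vs KO-Control, 2 for the guanabenz difference, 0 in KO-Control vs WT-Control and 1 in KO-Guanabenz vs WT-Guanabenz; RLE factors called 1 in WT-Guanabenz vs WT-Control. No filter gave 3 for the clonidine difference and 1 in WT-Guanabenz vs WT-Control. A stricter filter, which Themis did not pass, gave 18 in KO-Guanabenz vs KO-Control, 2 for the guanabenz difference, 0 in KO-Control vs WT-Control and 1 in KO-Guanabenz vs WT-Guanabenz. Y-linked transcripts as a covariate gave 213 in the first, 1 in KO-Clonidine vs KO-Control, 2 for the clonidine difference, 11 in KO-Guanabenz vs KO-Control, 0 in KO-Control vs WT-Control and 1 in KO-Guanabenz vs WT-Guanabenz. Fits to only the groups compared gave 4 genes and 0 of the 9 in the first and 0 in KO-Clonidine vs KO-Control, KO-Guanabenz vs KO-Control, KO-Control vs WT-Control and KO-Guanabenz vs WT-Guanabenz. Without the KO-Guanabenz libraries the first had 220 calls, and Cd6 an adjusted p of 0.0538 by edgeR; read as KO-Control, they gave 0 in KO-Clonidine vs KO-Control and 2 in KO-Control vs WT-Control.

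Replicate numbers did not pair libraries: deviations of 45 same-numbered pairs had correlations of -0.331 to 0.253, 10 of them over 0.1, and 5 of 18 libraries correlated best with their own number. With a replicate block, KO-Clonidine vs KO-Control, KO-Guanabenz vs KO-Control and KO-Control vs WT-Control had 0 calls and KO-Guanabenz vs WT-Guanabenz 1. In KO-Clonidine vs WT-Clonidine with the block, Cd5, Cd6 and Icos remained called (adjusted p = 0.0286, 0.0483 and 0.0398 by edgeR). Pdcd1lg2 and Lcp2 lost their calls there (adjusted p = 0.0565 and 0.0581 by edgeR).

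With 1 library left out, the calls ran from 1 (without WT-Clonidine 3) to 312 (without KO-Clonidine 2) in KO-Clonidine vs WT-Clonidine, with 0 to 4 of the 9 genes. They ran from 0 to 55 (without WT-Control 2) in WT-Clonidine vs WT-Control, 0 to 3 in KO-Clonidine vs KO-Control, 0 to 2 for the clonidine difference, 0 to 1 in WT-Guanabenz vs WT-Control, 0 to 85 (without KO-Guanabenz 3) in KO-Guanabenz vs KO-Control, 1 to 4 for the guanabenz difference, 0 to 2 in KO-Control vs WT-Control, 1 in each fit of KO-Guanabenz vs WT-Guanabenz and 0 to 1 in WT-Clonidine vs WT-Guanabenz. The median of the 9 genes ran from -1.26 to -0.84 in the first, -0.53 to -0.13 in KO-Clonidine vs KO-Control, -1.18 to -0.75 for the clonidine difference and -0.13 to 0.21 in KO-Control vs WT-Control. It ran from 0.59 to 0.96 in WT-Clonidine vs WT-Control, 0.39 to 0.78 in WT-Clonidine vs WT-Guanabenz, -0.14 to 0.22 in WT-Guanabenz vs WT-Control, 0.09 to 0.31 in KO-Guanabenz vs KO-Control, -0.11 to 0.30 for the guanabenz difference and -0.12 to 0.29 in KO-Guanabenz vs WT-Guanabenz. Cd6 in KO-Guanabenz vs KO-Control ran from -0.52 to 0.02, the one change of sign of a called value or of one more than 1 SE from 0; the causes of these changes were not tested. The mean of the 9 genes relative to CD3 ran from -0.25 to 0.01 in KO-Clonidine vs WT-Clonidine with 1 library left out. It ran from -0.08 to 0.08 in WT-Clonidine vs WT-Control and from -0.23 to 0.02 in KO-Clonidine vs KO-Control. For guanabenz it ran from -0.13 to 0.04 in WT-Guanabenz vs WT-Control and from -0.33 to -0.04 in KO-Guanabenz vs KO-Control.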
